A study of Bos taurus with 96 samples.

Results

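The 10 genes described here encode enzymes that make, interconvert or break down serine and glycine or pass on their carbon, with PCK2, the mitochondrial phosphoenolpyruvate carboxykinase, counted among them. They are TDH, GCAT, PCK2, PHGDH, PSAT1, PSPH, SHMT1, SHMT2, MTHFD2 and GLDC. They are 10 of the 10616 genes that could be named on the bovine array and were read by 18 of its 34227 tested probes. TDH and PCK2 were chosen by their low levels in marbling fat against subcutaneous fat on these same arrays, and the others by their place in the pathway, so their differences between intramuscular fat and subcutaneous fat are given as a description with no test. The SC arrays of that comparison serve again in every other comparison with SC, and the IMF arrays in every other comparison with IMF, so for TDH and PCK2 each difference from SC or from IMF, muscle included, is likewise only described, and tests of these 2 genes are given only among Inter, Kid and Omen and for breed and diet.

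The 96 arrays hold total RNA of steers for which the labels enter 259 days, both as time in a feedlot and under age, for every sample alike, and the figure is taken here as feedlot time only, with each sample on an array of its own. Marbling or intramuscular fat dissected out of the longissimus dorsi muscle (IMF), subcutaneous fat from over the rump (SC), omental fat (Omen), fat around the kidney (Kid) and fat between muscles (Inter) have 12 arrays each, 4 from Angus, 4 from Hereford and 4 from Wagyu x Angus animals, all of them fed on pasture after weaning. The longissimus dorsi muscle, sampled with its marbling fat left in place (LD), has 36 arrays, of which 24 come from animals on pasture and 12 from animals given supplement, in equal numbers per breed. Per the study's methods the fat samples came from fewer steers than there are fat arrays, and part of the LD samples came from an earlier kill, but the labels tell neither which depots share an animal nor which LD samples these are. P-values therefore treat arrays as separate samples, although both groups of a fat comparison can hold tissue of the same steer.

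As background, threonine dehydrogenase (TDH) and glycine C-acetyltransferase (GCAT) act in sequence in mitochondria to turn threonine into glycine and acetyl-CoA. PHGDH, PSAT1 and PSPH build serine from the glycolytic intermediate 3-phosphoglycerate, the serine hydroxymethyltransferases SHMT1 (cytosol) and SHMT2 (mitochondria) convert serine to glycine while charging folate with a carbon unit, MTHFD2 oxidises that unit in mitochondria, and GLDC is the decarboxylating subunit of the glycine cleavage system. PCK2 makes phosphoenolpyruvate from oxaloacetate inside mitochondria and so lets carbon from the citrate cycle enter serine synthesis. In adipose tissue these pathways can supply acetyl-CoA, NADPH and folate-bound carbon.

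A level is given as log2 of the background-subtracted signal of a probe relative to the 75th percentile of its array, so that 0 is the signal of that percentile and each step of 1 is a doubling. Levels of different genes come from different probes and were not compared with each other. Differences are between group means on this log2 scale, with their standard error (SE), and a gene is said to have risen or fallen where its adjusted p from limma was under 0.05 over all 34227 probes. A gene with several probes is given by the probe of the highest mean level over the 96 arrays. A probe counts as measured on an array where the scanner software found it well above background. Groups without overlap are named as a description only, since the share of all probes without overlap was not counted.

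Before the genes themselves, the tissue labels were set against marker genes. All 10 adipocyte markers were above background on every fat array, and their summed linear level, relative to the 75th percentile, ran from 705 to 1100 on the SC arrays, from 182 to 701 in IMF, from 500 to 764 in Inter, from 585 to 881 in Omen and from 477 to 949 in Kid. On the LD arrays it ran from 15.4 to 116 on pasture and from 13.6 to 31.7 on supplement. The 12 measured skeletal muscle markers summed to between 1100 and 3350 on the IMF arrays and between 3900 and 6620 on LD, against at most 2.44 on SC, 1.89 on Omen and 18.5 on Kid. On Inter the muscle sum had a median of 2.21 and reached 903 on 1 array. Without the 2 Inter arrays of the highest muscle sums, the TDH mean of Inter lay 1.97 under that of SC. The macrophage sum had a median of 7.75 in IMF against 24.8 in SC, 40.1 in Inter, 32.4 in Kid and 26.4 in Omen, and the fibroblast sum one of 254 in IMF against 395, 314, 114 and 212. The endothelial sum had a median of 42.9 in IMF against 74.5 in SC, and the 4 measured mesothelial markers one of 15.9 against 17. The IMF samples thus carried muscle RNA as well as fat RNA, their median adipocyte sum was 0.492 of that in SC, and the part that either plays in the differences below was not tested. In such whole-tissue RNA fewer cells of a type and less RNA per cell cannot be told apart.

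TDH was highest in SC and lowest in muscle. In SC its level had a mean of 0.71 ± 1.12 (SD, n = 12), with -1.29 the lowest, 1.02 the median and 1.98 the highest array. In Inter it ran from -4.99 over a median of -0.69 to 0.67, in Omen from -3.11 over -1.40 to 0.73, and in Kid from -3.95 over -1.92 to -0.51. In IMF it lay between -8.13 and -2.42 with a median of -4.82, and 9 of the 12 arrays had the probe above background. Every IMF array was below every SC array, whereas Inter, Kid and Omen each overlapped both SC and IMF. In LD on pasture the levels ran from -8.41 over -7.63 to -3.91 with 4 of 24 arrays above background, and in LD on supplement from -8.65 over -8.27 to -7.83 with 0 of 12 above background.

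As a description, the TDH mean of each of the other fat depots lay under that of SC. The difference was -2.04 (SE 0.55) for Inter, -2.72 (SE 0.44) for Kid and -2.08 (SE 0.46) for Omen, which are linear folds of 4.11, 6.61 and 4.24. The IMF mean of -4.86 ± 1.88 (SD, n = 12) differed from the SC mean by -5.58, or 47.7-fold. Only 9 of these 12 IMF arrays had the probe above background, so this fold is set in part by signal at background. On the same footing IMF differed by -3.54 from Inter, -2.85 from Kid and -3.49 from Omen. The order of the depot means was SC, then Inter, Omen and Kid, then IMF. Inter minus Omen came to 0.045 (adjusted p = 0.969) and Kid minus Omen to -0.64 (adjusted p = 0.374), and neither passed the test. Scan day went with depot, since all 12 IMF arrays were scanned on day 3 and 11 of the 12 SC arrays on day 1. With scan day as a block the IMF minus SC difference of TDH was -6.23, which rests on 12 IMF arrays against 1 SC array within day 3. For Kid against SC within day 1, 5 arrays against 11, the TDH difference was -3.15. All 12 Inter arrays were scanned on day 2, when no SC array was, and with scan day as a term over all 96 arrays the Inter minus SC difference of TDH was -2.71 and that of PCK2 -1.62. For Omen against SC within day 3, 10 arrays against 1, that of TDH was -2.70.

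Between LD on pasture and SC the fitted TDH difference was -7.80 (SE 0.41), with no overlap of the groups, but only 4 of the 24 LD arrays had the probe above background, so this difference is set mostly by signal at background. Against LD on supplement, where no array measured TDH, only bounds can be given. These are at least 129-fold higher in SC, 31.4-fold in Inter, 30.5-fold in Omen and 19.5-fold in Kid. They are set by the mean level of the depot over the lowest signal that counted as above background on each LD array. For IMF the same ratio was 2.7. With 9 of 12 IMF arrays above background, the IMF mean includes signal at background, so that ratio is no bound. IMF lay 2.23 log2 units above LD on pasture as a description. With normexp background correction and an offset of 50, which compresses dim signals, that last difference was 0.05 and the IMF minus SC difference of TDH was -3.90. A further TDH probe, which is not in the tested table, gave mean levels of -1.70 in SC, -3.78 in Inter, -4.46 in Kid, -3.80 in Omen and -6.93 in IMF, where it was above background on 4 of the 12 arrays.

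**Figure D1:**
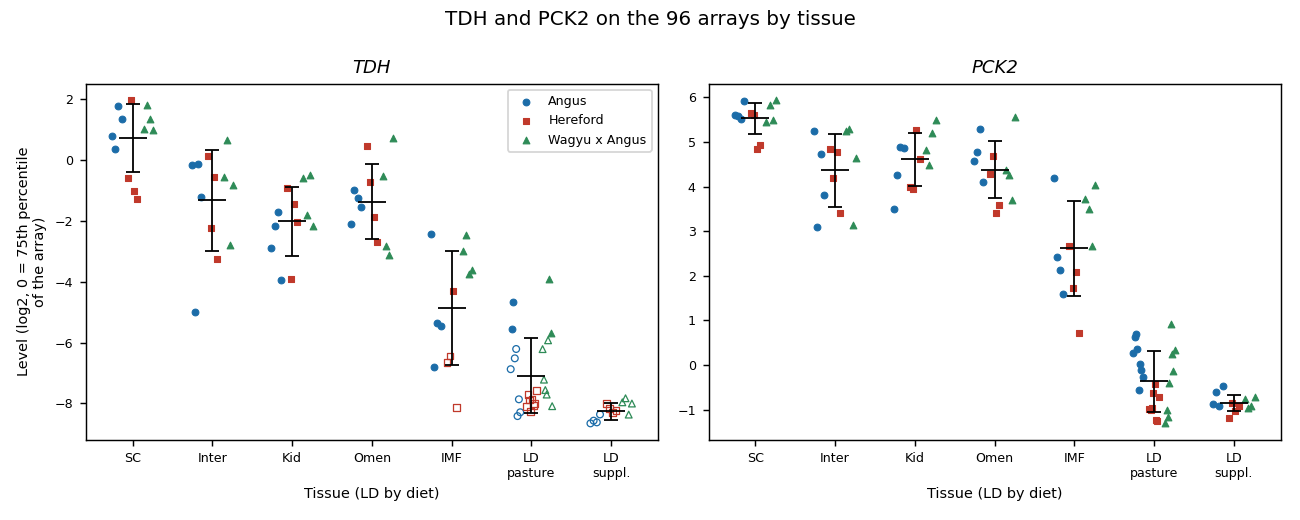
Level of TDH and PCK2 on each array (log2 relative to the array's 75th percentile, vertical axis) by tissue (horizontal axis), coloured by breed, with the mean and SD of each tissue in black and open symbols where the probe was not well above background. The 12 IMF arrays sit under all 12 SC arrays for both genes, and the LD means are the lowest, with LD arrays on pasture reaching -3.91 in TDH and 0.93 in PCK2, within the range of IMF.

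The mean of PCK2 was likewise highest in SC and, among the fat depots, lowest in IMF. Its level in SC was 5.53 ± 0.34 (SD, n = 12), with 4.83 the lowest, 5.58 the median and 5.94 the highest array. In Kid it ran from 3.51 over a median of 4.71 to 5.49, in Omen from 3.41 over 4.32 to 5.55 and in Inter from 3.1 over 4.68 to 5.28. In IMF it ran from 0.73 over 2.54 to 4.20 with a mean of 2.62 ± 1.07 (SD, n = 12). In LD it ran from -1.31 over -0.41 to 0.93 on pasture and from -1.18 over -0.90 to -0.48 on supplement. The probe was above background on every array, the IMF and SC arrays did not overlap, and 11 of the 12 IMF arrays lay above all LD arrays on pasture.

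As descriptions, the PCK2 means of the other depots lay under that of SC. The difference for Omen was -1.15 (SE 0.20), that for Inter -1.16 (SE 0.24) and that for Kid -0.92 (SE 0.19), which are linear folds of 2.22, 2.23 and 1.89. In the value table as deposited, which is not scaled between arrays, these came to -0.34 for Omen, -0.18 for Inter and -0.006 for Kid, so their size rests on the scaling. IMF differed by -2.91 from SC (7.50-fold), -1.75 from Inter, -1.99 from Kid and -1.76 from Omen. PCK2 did not pass the test between Kid and Omen (adjusted p = 0.564) or between Omen and Inter (adjusted p = 0.987). LD on pasture differed from SC by -5.89 (SE 0.20, 59.3-fold, no overlap), and IMF stood 2.98 above LD on pasture. The second probe of PCK2 gave -2.96 for IMF, -1.22 for Inter, -0.89 for Kid, -1.19 for Omen and -7.01 for LD against SC. Within scan day 3, 12 IMF arrays against 1 SC array, PCK2 differed by -3.30. Within day 1, 5 Kid arrays against 11 SC arrays, it differed by -1.02, within day 3, 10 Omen arrays against 1 SC array, by -1.60, and between LD on pasture and SC within day 1 by -6.43.

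The spread of both genes within IMF was wide. Its 2 extreme arrays are given as values. The IMF array with the highest TDH (-2.42) and the highest PCK2 (4.20) was an Angus sample with an adipocyte sum of 598 and a muscle sum of 1556. The IMF array with the lowest TDH (-8.13) and the lowest PCK2 (0.73) was a Hereford sample with sums of 182 and 3012. Over all 12 IMF arrays these sums ran from 182 to 701 and from 1100 to 3350, and their part in the spread was not tested. On the log2 scale the median adipocyte sum lay 1.02 under that of SC in IMF, 0.43 under in Inter, 0.32 in Kid, 0.37 in Omen and 4.67 in LD on pasture. Whether the differences of the TDH and PCK2 means from SC would remain at an equal adipocyte share was not tested.

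**Figure D2:**
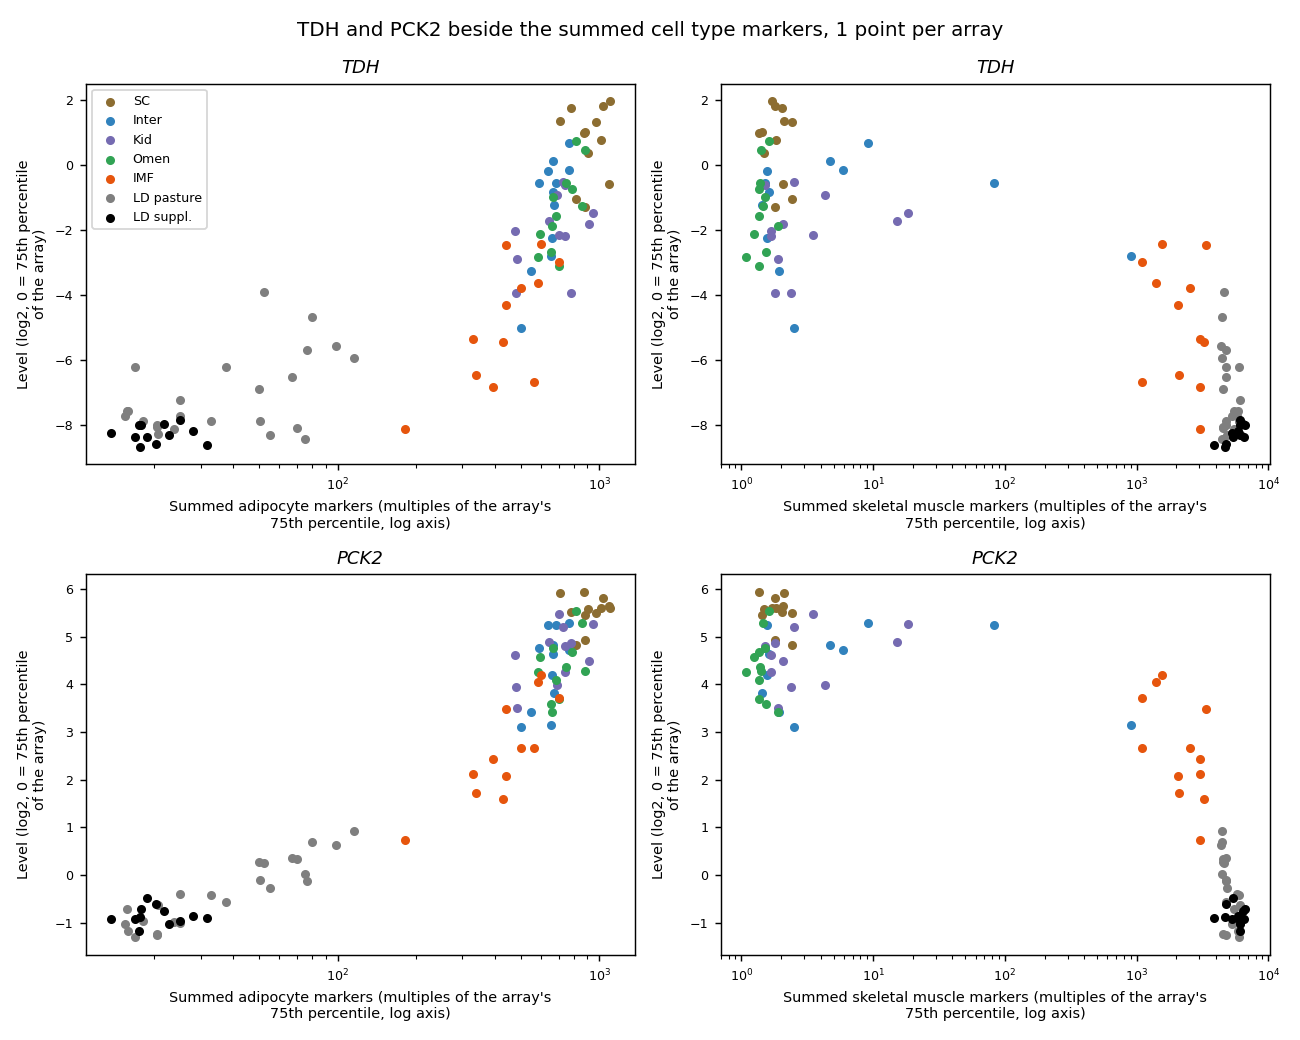
TDH and PCK2 on each array (log2 level, vertical axes) against the summed linear level of the adipocyte or skeletal muscle markers (log axes), coloured by tissue. The SC arrays (adipocyte sum 705 to 1100) have the highest means of both genes but overlap Inter, Kid and Omen, the IMF arrays (182 to 701) are spread below SC and in part reach the levels of Inter, Kid, Omen or LD, and arrays share their tissue, so no correlation is given.

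GCAT, the enzyme that follows TDH, fell in every tissue against SC, to means between 1.82 in Omen and 2.29 in Kid among the other fat depots. Its level was 3.12 ± 0.37 (SD, n = 12) in SC, with 2.27, 3.17 and 3.63 as lowest, median and highest array. In IMF it ran from 1.17 over 1.86 to 2.50, in Inter from 0.46 over 2.27 to 3.38, in Kid from 0.62 over 2.17 to 3.53 and in Omen from 0.81 over 1.85 to 3.04. In LD it ran from 1.33 over 2.03 to 2.44 on pasture. The groups overlapped SC everywhere, with 9 of 12 IMF arrays and 10 of 12 Omen arrays below the lowest SC array. IMF minus SC came to -1.23 (SE 0.15, adjusted p = 2.27e-07) and Omen minus SC to -1.29 (SE 0.22, adjusted p = 3.33e-05). Kid minus SC came to -0.83 (SE 0.27, adjusted p = 0.0152), Inter minus SC to -1.09 (SE 0.30, adjusted p = 0.00407) and LD minus SC to -1.13 (SE 0.12, adjusted p = 3.02e-11). GCAT did not pass the test between IMF and Inter (-0.15, 95% interval -0.77 to 0.47), Kid (-0.40, -0.96 to 0.16), Omen (0.06, -0.39 to 0.52) or LD on pasture (-0.10, -0.35 to 0.14). All 3 probes of GCAT passed the test against SC in all 5 tissues. In the value table as the authors deposited it, with no scaling between arrays, the Kid difference turned to 0.07 (adjusted p = 0.798) and the Inter difference was -0.09 (adjusted p = 0.752). Within scan day 3, against 1 SC array, the call was also lost for IMF (-1.15, adjusted p = 0.074) and for Omen (-1.24, adjusted p = 0.379).

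The serine synthesis enzymes PHGDH, PSAT1 and PSPH did not move alike. PSAT1, the transaminase of that pathway, rose in each fat depot against SC, where its levels ran from -1.13 over a median of -0.68 to -0.27. Its levels ran from -0.65 over 0.88 to 1.41 in Kid, from -0.54 over 0.65 to 2.08 in Omen, from -0.40 over 0.08 to 0.55 in Inter and from -1.21 over 0.36 to 1.19 in IMF. In Kid 11 of 12 arrays exceeded all SC arrays, in Inter 10, in Omen 9 and in IMF 8. The rise came to 1.44 for Kid (SE 0.20, adjusted p = 3.14e-06), 1.36 for Omen (SE 0.25, adjusted p = 9.45e-05), 0.81 for Inter (SE 0.12, adjusted p = 9.92e-06) and 0.78 for IMF (SE 0.23, adjusted p = 0.00536). With scan day as a block the IMF difference was 1.10 (adjusted p = 0.212) and the Omen difference 1.62 (adjusted p = 0.151). In LD on pasture PSAT1 fell by 0.27 (adjusted p = 0.0364), a call that was lost when any 1 of 8 arrays was left out (adjusted p = 0.051 to 0.0784). It was also lost in 6 of 19 alternatives, among them quantile normalisation (-0.19, adjusted p = 0.124), slide as a random block (-0.24, adjusted p = 0.245) and scan day 3 alone, 8 arrays against 1 (-0.04, adjusted p = 0.923). A further PSAT1 probe, which is not in the tested table, had mean levels of -5.75 in SC and -5.61 in IMF, with -4.53 for Omen, -4.49 for Kid and -5.21 for Inter, and was above background on 7 of the 12 SC and 8 of the 12 IMF arrays.

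PHGDH, which commits 3-phosphoglycerate to serine, was 0.73 higher in Kid than in SC (SE 0.20, adjusted p = 0.00466). Its levels ran from -0.75 over -0.15 to 1.15 in Kid against -1.38 over -0.95 to 0.11 in SC, and from -1.86 over -0.30 to 1.04 in IMF. The IMF difference of 0.48 (95% interval -0.16 to 1.11) did not pass the test, nor did those of Inter (-0.16, -0.54 to 0.23) and Omen (0.15, -0.20 to 0.50). Kid also exceeded Inter by 0.89 (adjusted p = 0.00343) and Omen by 0.59 (adjusted p = 0.0232). The Kid minus Omen call of PHGDH was lost in 6 alternatives, among them slide as a random block (0.56, adjusted p = 0.0681), scan day as a block (0.49, adjusted p = 0.331) and within day 3, 1 array against 10 (0.15, adjusted p = 0.981), while IMF and Kid differed by -0.26 (95% interval -0.89 to 0.37, adjusted p = 0.486). PSPH, the phosphatase that ends the pathway, was 0.82 higher in Omen than in SC (SE 0.31, adjusted p = 0.034). That call was lost without any 1 of 10 of the 24 arrays (adjusted p = 0.0501 to 0.0618), and within scan day 3, 10 Omen arrays against 1 SC array, the difference was -0.83 (adjusted p = 0.574). Its levels ran from -0.72 over 0.98 to 1.99 in Omen, from -1.44 over 0.10 to 1.58 in SC and from -1.13 over -0.64 to 0.98 in IMF. IMF was lower than Inter by 1.15 (adjusted p = 0.000666), than Kid by 0.79 (adjusted p = 0.00899) and than Omen by 1.45 (adjusted p = 0.000135). The call against Kid was lost with scan day as a block (-0.73, adjusted p = 0.525). Against SC it was 0.63 lower with an adjusted p of 0.0572, while the PSPH probe the paper lists gave -1.11 and passed the test (adjusted p = 0.00105). Over 17 alternatives that difference ran from -2.10, with scan day as a block and 1 SC array, to -0.033 in the value table without scaling, and 8 of them gained the call.

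Of the enzymes that pass serine carbon to folate, SHMT1, SHMT2 and MTHFD2 were each lower in IMF than in the other 4 fat depots by the probe used here. SHMT1 had levels from -1.64 over -1.07 to -0.47 in IMF and from -0.46 over -0.21 to 0.34 in SC, with no overlap between them, and fell by 0.95 (SE 0.12, adjusted p = 4.31e-07). IMF was also 0.86 under Inter (adjusted p = 2.3e-05), 1.29 under Kid (adjusted p = 9.77e-06) and 0.75 under Omen (adjusted p = 0.00012). All 3 probes of SHMT1 passed in these 4 comparisons and in the same direction. SHMT1 did not pass the test between Inter, Kid or Omen and SC (-0.10, 95% interval -0.37 to 0.18; 0.34, -0.06 to 0.74; -0.20, -0.48 to 0.07). With scan day as a block its IMF minus SC difference was -0.72 (adjusted p = 0.115), and in the value table without scaling -0.35 (adjusted p = 0.083).

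SHMT2 had levels from -0.09 over 0.22 to 0.63 in IMF and from 0.26 over 0.72 to 0.95 in SC. It fell in IMF by 0.47 (SE 0.08, adjusted p = 2.55e-05) against SC, by 0.35 against Inter (adjusted p = 0.000614), by 0.65 against Kid (adjusted p = 1.31e-05) and by 0.35 against Omen (adjusted p = 0.000525). The SHMT2 difference from SC was -0.54 (adjusted p = 0.0759) and that from Kid -0.80 (adjusted p = 0.0819) with scan day as a block. Its probes disagreed. The probe the paper lists gave -1.23 for IMF minus SC and also fell in Inter (-0.72), Kid (-0.35) and Omen (-0.75), whereas a further probe gave 0.02 for IMF minus SC and 0.26, 0.18 and 0.29 for IMF minus Inter, Kid and Omen, the last of which passed the test (adjusted p = 0.044) in the opposite direction. In the value table without scaling the IMF minus SC difference of SHMT2 turned to 0.18.

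MTHFD2 had levels from -4.68 over -4.48 to -4.07 in IMF, from -4.60 over -4.09 to -3.32 in SC and from -3.90 over -3.46 to -2.98 in Omen. IMF and Omen did not overlap. IMF was lower than SC by 0.43 (SE 0.13, adjusted p = 0.00457), than Inter by 0.75 (adjusted p = 1.43e-06), than Kid by 0.97 (adjusted p = 1.06e-06) and than Omen by 0.995 (adjusted p = 1.61e-08). Against SC it was higher in Kid by 0.54 (adjusted p = 0.00887) and in Omen by 0.56 (adjusted p = 0.00178), but with normexp correction these differences were -0.07 and -0.08. The IMF minus SC difference of MTHFD2 was 0.23 in the value table without scaling, -0.38 (adjusted p = 0.462) with scan day as a block and -0.52 (adjusted p = 0.0853) with scan day as a term over all 96 arrays. That term also ended its calls for Kid minus SC (adjusted p = 0.148), Omen minus SC (adjusted p = 0.176) and IMF minus Inter (adjusted p = 0.0889). GLDC, which starts glycine breakdown, was higher than in SC in Inter by 0.57 (SE 0.18, adjusted p = 0.00989) and in Kid by 0.97 (SE 0.30, adjusted p = 0.0116). Its levels ran from -5.34 over -4.51 to -3.80 in SC, from -4.68 over -3.95 to -3.08 in Inter, from -4.59 over -3.89 to -1.48 in Kid and from -5.50 over -4.28 to -2.04 in IMF. With normexp the Inter difference of GLDC was -0.21 and with scan day as a term over all 96 arrays it was -0.09. The Kid difference of GLDC was 0.14 with normexp (adjusted p = 0.524) and 0.88 within scan day 1 (adjusted p = 0.0854).

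**Figure D3:**
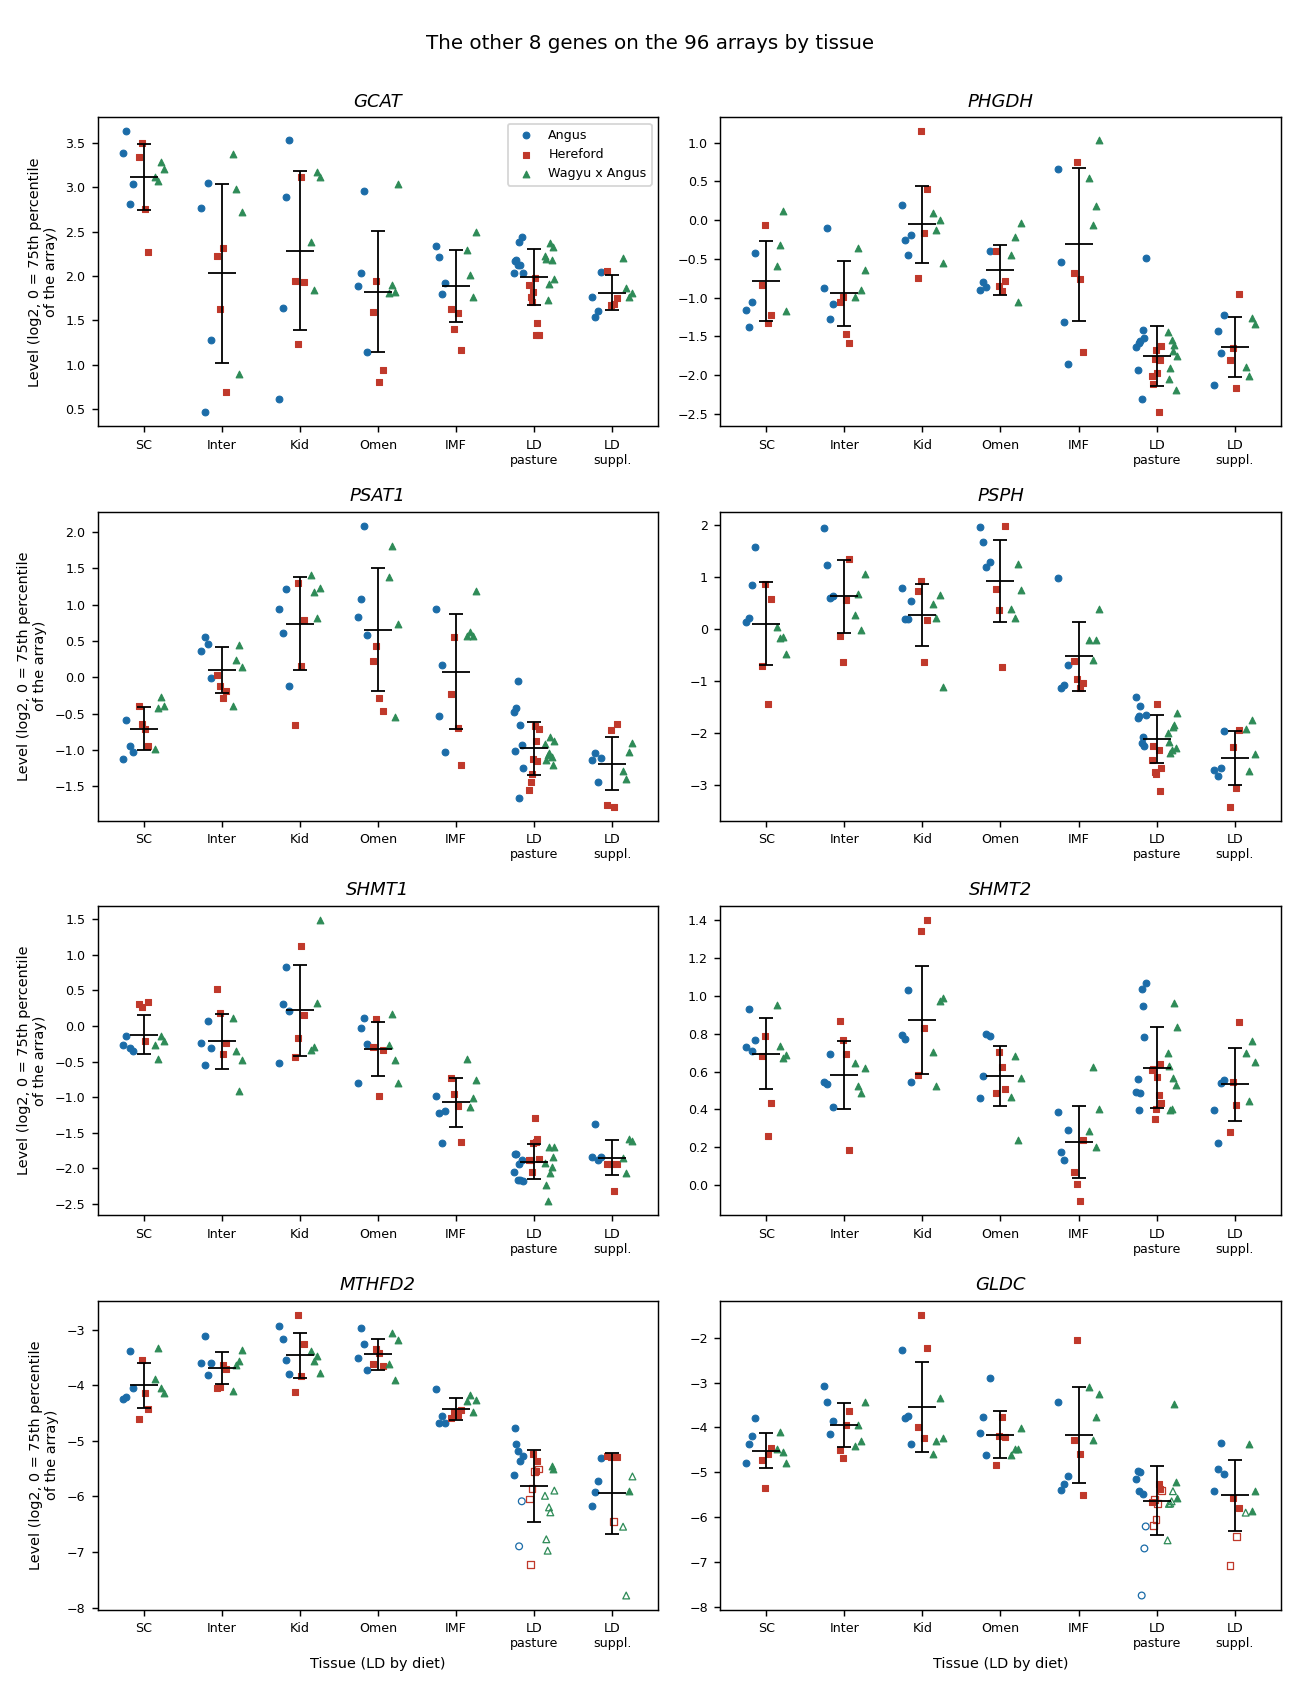
Level of the other 8 genes on each array (log2 relative to the array's 75th percentile, vertical axes) by tissue (horizontal axes), coloured by breed, with mean and SD in black and open symbols where the probe was not well above background. PSAT1 lies lower in SC than in the other fat depots, SHMT1 and MTHFD2 lie lower in IMF, and GCAT lies highest in SC.

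Many probes on the array differed between depots, so the counts of these genes are read against that background. Between IMF and SC 5 of the 8 genes tested passed, PSAT1 upwards and GCAT, SHMT1, SHMT2 and MTHFD2 downwards, with a median difference of -0.45 against 0.01 over all probes, where 64.3% of all probes passed, 31.9% higher and 32.5% lower. Between Inter and SC 3 of 8 passed (PSAT1 and GLDC higher, GCAT lower) against 48.8% of all probes (21.5% higher, 27.3% lower), with a median of 0.11 against -0.05. Between Kid and SC 5 of 8 passed (4 higher, 1 lower) against 41.7% (19.3% higher, 22.4% lower), with a median of 0.44 against -0.01. Between Omen and SC 4 of 8 passed (3 higher, 1 lower) against 46.6% (22.3% higher, 24.3% lower), with a median of 0.25 against -0.01. With 8 genes to a comparison, nothing particular to these genes is read from such shares. In the value table as deposited 7 of 8 passed in Inter minus SC and 8 of 8 in Omen minus SC, and in Kid minus SC 3 passed with normexp.

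IMF against the other depots gave calls in the lower direction only. In IMF minus Inter 4 of 8 genes passed, all lower, against 62.9% of probes (33.6% higher, 29.4% lower), with a median of -0.28 against 0.05. In IMF minus Kid 5 of 8 passed, all lower, against 56.1% (29.3% higher, 26.8% lower), with a median of -0.65 against 0.04, of which PSAT1 (-0.66, adjusted p = 0.0483) was lost without any 1 of 15 arrays. In IMF minus Omen 4 of 8 passed, all lower, against 57.6% (27.8% higher, 29.7% lower), with a median of -0.46 against 0.01. With scan day as a block, which leaves 12 arrays against 1 in IMF minus SC and IMF minus Kid, 2 and 1 genes passed, and in Omen minus SC, with 10 arrays against 1, 0 passed.

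Among Inter, Kid and Omen fewer of all probes passed than in the comparisons of these depots with SC. Between Inter and Kid 3 of 10 genes passed, all lower in Inter, against 15.4% of probes (7.92% higher, 7.49% lower), namely PHGDH (-0.89), PSAT1 (-0.64, adjusted p = 0.0333) and SHMT2 (-0.29, adjusted p = 0.0494). PSAT1 was lost without any 1 of 10 arrays and SHMT2 without any 1 of 17. Between Kid and Omen 2 of 10 passed, both higher in Kid, against 13% (5.82% higher, 7.15% lower), PHGDH, with the limits given above, and SHMT2 (0.30, adjusted p = 0.0449, lost without any 1 of 16 arrays). Between Inter and Omen limma called 0 of 10 genes against 14.5% of probes (5.41% higher, 9.06% lower), with 2 genes at an unadjusted p under 0.05 and 0 by the equal-variance test.

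The split of all calls into higher and lower moved with the scaling. Over 4 other scalings (quantile, mean-centred, normexp, and the authors' table set to its 75th percentile) the share of calls that were higher moved from 49.6% to between 27.4 and 51.8% for IMF minus SC, from 44% to between 19.1 and 49.2% for Inter minus SC, from 46.2% to between 19.8 and 50.2% for Kid minus SC, and from 47.9% to between 18.9 and 52.4% for Omen minus SC. For IMF minus Inter it moved from 53.3% to between 37.8 and 64.1% and for IMF minus Kid from 52.2% to between 37.5 and 60.4%. It moved from 51.4% to between 46.3 and 69.2% for Inter minus Kid, from 37.4% to between 29.1 and 58.2% for Inter minus Omen, from 44.9% to between 29.9 and 60.6% for Kid minus Omen, from 48.6% to between 28 and 50.9% for IMF minus LD, and from 49.9% to between 47.9 and 73.2% for LD on supplement minus pasture. In the deposited table, which is not scaled, the share of higher calls was 92% for IMF minus SC, 99.6% for Inter minus SC, 98.4% for Kid minus SC, 99% for Omen minus SC, 86.1% for IMF minus LD, 20.1% for IMF minus Inter, 29.7% for IMF minus Kid, 28% for IMF minus Omen, 91.1% for Inter minus Kid, 88.2% for Inter minus Omen and 5.42% for diet. The median of all probes shifted by up to 0.31 under these scalings and by up to 1.03 in the deposited table, so a small difference such as that of SHMT2 is a difference relative to the other probes of the array.

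**Figure D4:**
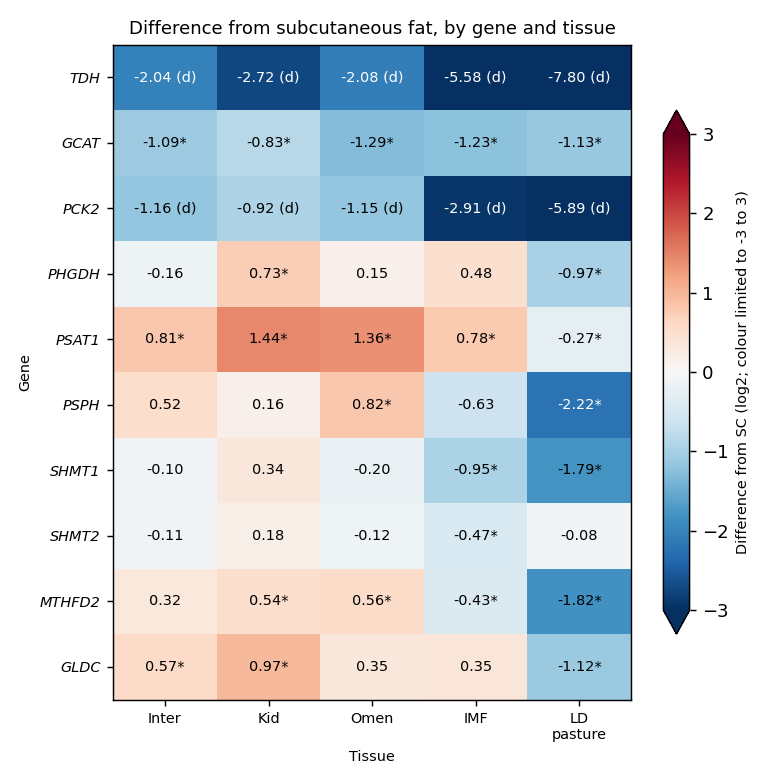
Difference of each gene from SC (log2, colour limited to -3 to 3) in IMF, Inter, Kid, Omen and LD on pasture, with the value in each cell, * where it passed the threshold and (d) where it is described with no test. TDH, PCK2 and GCAT are lower in all 5 tissues, and PSAT1 is higher in the 4 fat depots.

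In LD on pasture 7 of the 8 genes tested were lower than in SC, PSAT1 with the limits given above, with a median difference of -1.13 against 0.05 over all probes, where 82.9% of probes passed (42.6% higher, 40.3% lower). SHMT1 and MTHFD2 did not overlap with SC, and how many of all probes did likewise was not counted. Besides GCAT and PSAT1 the falls were 2.22 in PSPH (adjusted p = 1.84e-12), 1.82 in MTHFD2 (adjusted p = 1.34e-10), 1.79 in SHMT1 (adjusted p = 4.49e-20), 1.12 in GLDC (adjusted p = 3.36e-05) and 0.97 in PHGDH (adjusted p = 3.04e-07). MTHFD2 and GLDC were each above background on 11 of the 24 LD arrays, and with normexp correction their falls of 0.32 (adjusted p = 0.0591) and 0.10 (adjusted p = 0.546) did not pass. SHMT2 did not pass (-0.08, 95% interval -0.23 to 0.08), while the paper's SHMT2 probe gave -0.86.

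The IMF mean lay between those of SC and LD on pasture for TDH, PCK2, PSPH, SHMT1 and MTHFD2. Of the 8 genes tested between IMF and LD on pasture, 6 were higher in IMF and SHMT2 was lower, against 75.3% of probes (36.6% higher, 38.7% lower). PSPH was 1.59 higher (adjusted p = 1.08e-09) and MTHFD2 1.39 higher (adjusted p = 2.64e-08), both with no overlap, and PHGDH 1.44 (adjusted p = 3.49e-07), GLDC 1.47 (adjusted p = 3.85e-05), PSAT1 1.05 (adjusted p = 4.46e-06) and SHMT1 0.83 (adjusted p = 2.48e-09). With normexp MTHFD2 turned to -0.19 and GLDC was 0.00. SHMT2 was 0.39 lower (adjusted p = 1.92e-05), so that its IMF mean of 0.23 lay under the means of both SC (0.70) and LD on pasture (0.62), although it turned to 0.30 in the value table without scaling. PSAT1 had an IMF mean of 0.08 above both SC (-0.71) and LD (-0.98). The IMF mean of PHGDH (-0.31) also lay above SC (-0.79) and LD (-1.76). That of GLDC (-4.16) lay above SC (-4.51) and LD (-5.63). Neither PHGDH nor GLDC passed the test between IMF and SC.

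Over the 60 fat arrays, with depot in the fit, limma called 0 of 10 genes for breed against 3.45% of all probes. At an unadjusted p under 0.05 the breed test held 6 of the 10 genes, against 16.8% of all probes. Depots of the same steer count here as separate samples, so p-values for breed are too small. In single contrasts 0.631% of probes passed for Hereford minus Angus, 0.824% for Wagyu x Angus minus Angus and 3.72% for Wagyu x Angus minus Hereford. In the last of these PSAT1 was 0.63 higher in Wagyu x Angus (adjusted p = 0.0295), and PCK2 (0.68, adjusted p = 0.056), GCAT (0.62, adjusted p = 0.0897) and TDH (1.18, adjusted p = 0.108) had differences of the same direction that did not pass. PSAT1 passed the overall breed test when any 1 of 4 arrays was left out (adjusted p = 0.0204 to 0.0496), an IMF Hereford, an Omen Wagyu x Angus, an IMF Angus and a Kid Hereford array.

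The gap between IMF and SC in TDH and PCK2 had the same sign in each breed, as a description. For TDH it was -6.07 among Angus, -4.50 among Wagyu x Angus and -6.15 among Hereford samples. The TDH mean of IMF was -3.21 ± 0.59 for Wagyu x Angus, -5.01 ± 1.85 for Angus and -6.38 ± 1.58 for Hereford (SD, n = 4 each), and 1 of the 4 Hereford arrays had the probe above background. For PCK2 the gap was -3.06 among Angus, -2.20 among Wagyu x Angus and -3.46 among Hereford samples. Whether the IMF minus SC difference depends on breed was tested for the 8 genes other than these 2, and limma called 0 of them (0.00584% of all probes, 1 gene at an unadjusted p under 0.05).

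In LD on pasture breed had more calls. Here 3 of 10 genes passed, GCAT (adjusted p = 0.00869), PCK2 (adjusted p = 0.0309) and PSPH (adjusted p = 0.0383), against 14.7% of probes. In Hereford GCAT was 0.52 lower than in Angus (adjusted p = 0.00651), PCK2 1.03 lower (adjusted p = 0.0186) and PSPH 0.69 lower (adjusted p = 0.0237), where 8.76% of probes passed. The other probes differed from these. For GCAT they gave -0.37 each and did not pass (adjusted p = 0.23 and 0.224), for PCK2 the second gave -2.15 (adjusted p = 0.013), and for PSPH the probe the paper lists gave -0.15 (adjusted p = 0.652). Wagyu x Angus exceeded Hereford in GCAT by 0.45 (adjusted p = 0.0166), where 10.8% of probes passed, and none of the 10 genes passed between Wagyu x Angus and Angus (1.72% of probes). PCK2 ran from -0.56 to 0.69 among Angus, from -1.31 to 0.93 among Wagyu x Angus and from -1.26 to -0.42 among Hereford samples (n = 8 each). GCAT ran from 2.03 to 2.44 among Angus, from 1.72 to 2.38 among Wagyu x Angus and from 1.33 to 1.97 among Hereford samples, the last overlapping Angus nowhere.

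These breed differences in muscle coincided with slide. Each slide carries 4 arrays, and the LD arrays of slides 2 and 23 (both Angus) and 20 (Wagyu x Angus) had adipocyte sums of 50.2 to 99, 37.4 to 75.3 and 52.4 to 116, while on all other LD slides, of either diet, the sum lay between 13.6 and 32.8. Slide means of TDH were -5.91 on slide 2, -5.90 on slide 20 and -7.70 on slide 23, against -7.87 to -7.48 on the other 3 pasture slides. Slide means of PCK2 were 0.49, 0.35 and -0.23 on slides 2, 20 and 23, against -1.07 to -0.80 on the others. With slide as a random block none of the 3 genes passed the breed test (adjusted p = 0.433 for GCAT, 0.622 for PCK2 and 0.518 for PSPH). With scan day as a further term GCAT alone passed, with PCK2 at 0.136 and PSPH at 0.0703. Slides 2 and 23 hold all Angus samples on pasture and no others, so that Angus and these slides cannot be told apart. A further probe of GCAT did not pass the breed test (adjusted p = 0.0571) and another did (adjusted p = 0.0328).

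**Figure D5:**
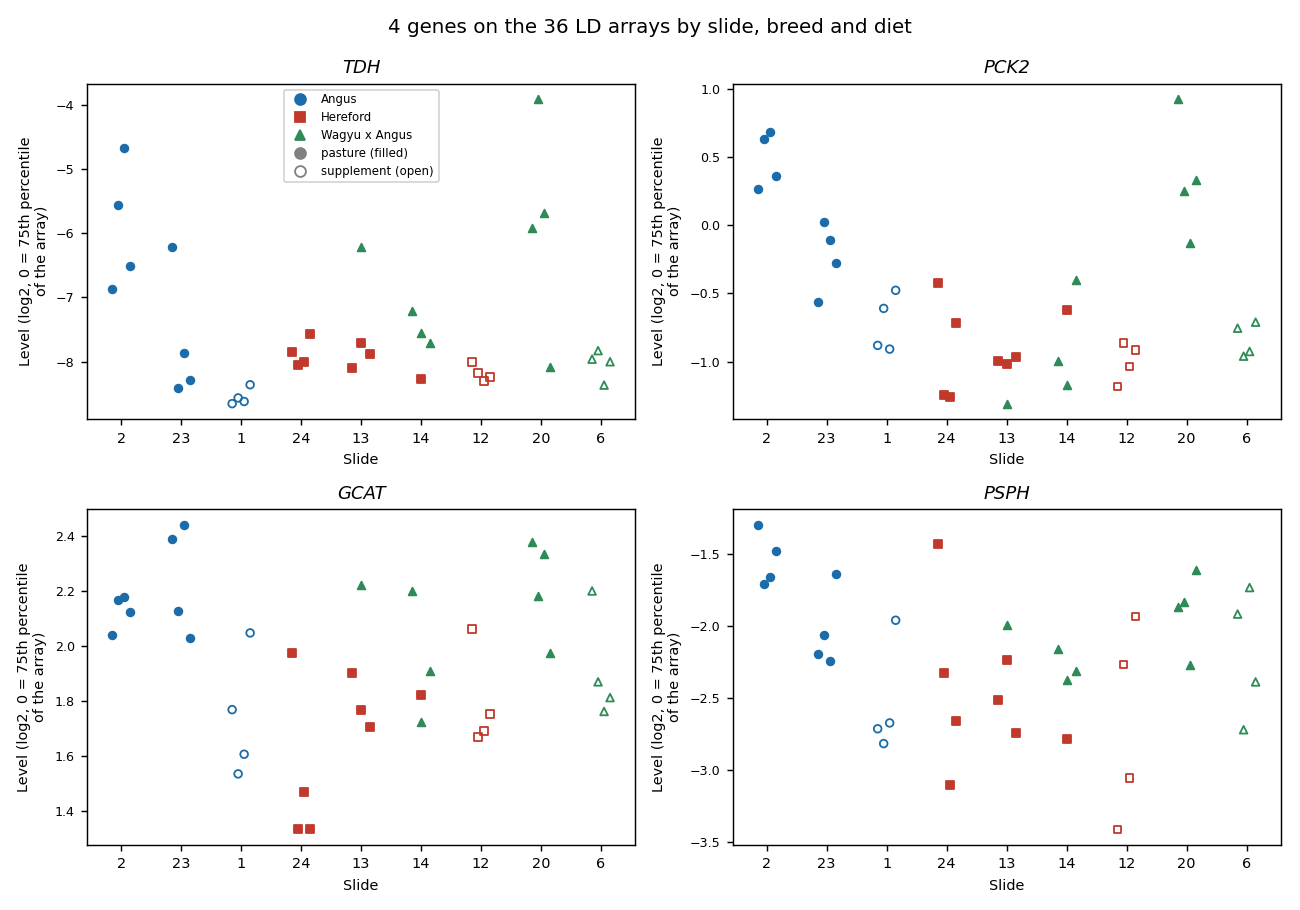
TDH, PCK2, GCAT and PSPH on the LD arrays (log2 level, vertical axes) by slide (horizontal axes), coloured by breed, with filled symbols for pasture and open symbols for supplement. Pasture slides 2 and 20 stand above the other LD slides in TDH and PCK2 with slide means of -5.91 and -5.90 in TDH.

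Post-weaning diet was compared in LD, 12 arrays on supplement against 24 on pasture. Per the study's methods part of the LD samples came from an earlier kill. The labels do not mark that kill, so it could not be separated from diet. Of the 10 genes 1 passed the fit, TDH (adjusted p = 0.0192), against 11.2% of probes (5.6% higher, 5.63% lower). The TDH probe was above background on 0 of the 12 supplement arrays and 4 of the 24 pasture arrays, with mean signals of -8.26 and -7.09, so no size of a diet difference is read from it. The call was lost with slide as a random block (adjusted p = 0.577), with scan day as a further term (0.0861) and with normexp, where the difference was 0.01. PCK2 was 0.49 lower on supplement (adjusted p = 0.0515), which became 0.00 without those 3 slides. A dependence of the diet difference on breed was called in 0 of 10 genes by limma against 16.1% of probes, with 2 genes at an unadjusted p under 0.05. The other probes of GCAT passed that test at 0.00873 and 0.0241, against 0.072 for its first probe.

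Across the 18 means of tissue and breed on pasture, the genes whose pattern was most like that of TDH were FITM2 (r = 0.992), which partitions triglyceride into lipid droplets, DDT (0.981), TCTN1 (0.981), LMO4 (0.979) and LDHB (0.979), a lactate dehydrogenase subunit, among 10353 genes. Those most like PCK2 were QPRT (0.994), an enzyme of NAD synthesis, TALDO1 (0.994), of the pentose phosphate pathway, FAH (0.993), of tyrosine breakdown, ZPBP (0.991) and SCD (0.991), the stearoyl-CoA desaturase. PCK2 came 49th for TDH with r = 0.958, and TDH 363rd for PCK2, but since both were chosen as low in IMF against SC, and these means include both depots, the likeness of the 2 genes is in large part set by that choice. The 18 means share the contrast of fat with muscle. Over the 15 means of fat alone TDH and GCAT had r = 0.675, PCK2 and SHMT2 0.786, TDH and PSAT1 -0.194 and TDH and PHGDH -0.236. PSPH and MTHFD2 had r = 0.788 and SHMT1 and SHMT2 0.835 over the same 15 means.

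Genes around the pathway were taken from 5 lists, whose counts stand against 64.3% of all probes called in IMF, 48.8% in Inter, 41.7% in Kid, 46.6% in Omen and 82.9% in LD on pasture, each against SC. Of 15 measured genes of the folate cycle 8 passed between IMF and SC, 3 higher and 5 lower, with a median of -0.17. FPGS, which retains folate in cells, was 0.50 higher, while the folate carrier SLC19A1 was 1.15 lower and ALDH1L1, which burns formylfolate, 1.40 lower. In Inter 8 of the 15 passed (3 higher, 5 lower), in Kid 7 (5 higher, 2 lower), in Omen 10 (5 higher, 5 lower) and in LD on pasture 14 (7 higher, 7 lower). GGH, which releases folate, was higher than in SC by 0.63 in Inter, 1.51 in Kid and 1.62 in Omen and lower by 3.19 in LD. MTHFD2L, the isoform of MTHFD2, was lower by 0.80 in Inter, 0.45 in Kid and 0.56 in Omen.

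Of 17 measured genes of glycine and serine turnover 10 passed between IMF and SC, 4 higher and 6 lower, with a median of 0.11. DLD, the shared lipoamide dehydrogenase of the glycine cleavage system and other complexes, was 2.43 higher, while the serine dehydratase-like SDSL was 1.21 lower and the choline dehydrogenase CHDH 1.74 lower. In LD 16 passed (6 higher, 10 lower), with DLD 4.10 higher and SDSL 4.40 lower, in Inter 8 (3 higher, 5 lower), in Kid 6 (4 higher, 2 lower) and in Omen 8 (4 higher, 4 lower). GATM, which uses glycine for creatine, was higher by 0.91 in Inter and 0.998 in Omen. In Kid the serine dehydratase SDS was 1.09 higher, with 6 of the 12 SC arrays above background, and SDSL 1.12 higher.

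Of 11 measured amino acid carriers 6 passed between IMF and SC (3 higher, 3 lower). SLC7A10, a carrier of glycine, serine and other small neutral amino acids, was 3.82 higher in IMF and 4.68 higher in LD, but lower by 0.93 in Inter and 1.95 in Kid, where 6 of the 12 arrays were above background. The mitochondrial serine carrier SFXN1 differed by -1.64 in IMF, -5.26 in LD and -1.14 in Kid, and its relative SFXN2 by -1.40 in IMF, -3.85 in LD and -0.86 in Omen. Of the 11 carriers 8 passed in Inter (3 higher, 5 lower), 8 in Kid (3 higher, 5 lower), 7 in Omen (3 higher, 4 lower) and 10 in LD (4 higher, 6 lower). SLC1A5, a neutral amino acid exchanger, was higher by 0.57 in Inter, 0.75 in Kid and 1.09 in Omen.

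Through the ATF4 response cells answer a lack of amino acids. Of its 17 measured genes 13 passed between Kid and SC, 11 of them higher (41.7% of all probes passed, 19.3% higher). Between Omen and SC 10 passed, 8 of them higher (46.6%, 22.3% higher). The part of this response in the levels of the 10 genes was not tested. In Omen minus SC 2 passed with scan day as a block, which leaves 10 Omen arrays against 1 SC array, and 6 with scan day as a term over all 96 arrays. Here ATF3 was higher by 1.97 in Kid and 3.01 in Omen and TRIB3 by 1.30 and 1.54, whereas CHAC1 was lower by 0.48 and 0.49 and SESN2 by 0.79 and 0.87. In Inter 7 passed (5 higher, 2 lower), in IMF 11 (5 higher, 6 lower) and in LD 16 (7 higher, 9 lower). In IMF ATF3 was 2.69 higher and DDIT4 1.58 higher, while ASNS, the asparagine synthetase, was 1.02 lower and SESN2 1.41 lower.

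Of 12 measured genes of phosphoenolpyruvate and mitochondrial exchange 11 passed between IMF and SC, 8 higher and 3 lower, with a median of 0.73, and 11 between LD and SC, 8 higher and 3 lower, with a median of 2.21. PKM, the pyruvate kinase of muscle and many other tissues, was 2.81 higher in IMF and 4.80 higher in LD, and the carrier SLC25A12 was 1.97 and 3.84 higher. The muscle sum was 1270-fold that of SC in IMF and 2640-fold in LD at the median, and its part was not tested. Pyruvate carboxylase (PC), which feeds oxaloacetate to PCK2, was lower in each of the 5 tissues than in SC, by 2.24 in IMF, 1.30 in Inter, 1.23 in Kid, 1.26 in Omen and 2.90 in LD. PCK1, the cytosolic counterpart of PCK2, went the other way in 3 depots, higher by 1.68 in Inter, 1.52 in Kid and 1.35 in Omen, and was 3.36 lower in LD. In Inter 7 of the 12 passed (1 higher, 6 lower), in Kid 5 (1 higher, 4 lower) and in Omen 9 (1 higher, 8 lower), PCK1 being the higher gene in all of them.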

How the data were processed

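Total RNA of bovine fat and muscle was hybridised in 1 colour to Agilent arrays of 4 to a slide and scanned over 3 days, with 96 arrays on 24 slides. The scanner files deposited by the authors hold signal intensity per spot from Feature Extraction 10.7.3.1 (protocol GE1_107_Sep09). The deposited value table holds log2 values. The study's methods describe a mixed-model normalisation, but all 3285792 values of the table lie within 0.0001 of log2 of median signal minus background (set to at least 1), with no scaling between arrays, so it served as an alternative only.

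From the background-subtracted, processed signal intensity that the authors deposited, log2 was taken and the 75th percentile of each array over its probes that are not controls was subtracted. Outlier-flagged spots were left out and spots of a probe averaged. The 34227 probes of the value table were tested of 43653. Bovine RefSeq accessions in the scanner files named 19903 probes and the probe tables of the paper 4439. The 149 probes that both named differently were left unnamed, and 21296 of the tested probes stand for 10616 genes. No sequences or coordinates are given, since no probe sequence or genome was used here.

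Groups were compared by limma 3.58.1 in R 4.3.3 (lmFit and eBayes, arrays of the 2 groups only, without replicate block), with Benjamini-Hochberg adjustment over the 34227 probes and a threshold of 0.05. Breed was tested with depot in the model, and diet with breed in the model. The script was tested on simulated data. Array precision is limited by the number of arrays, and between 80.9 and 99.6% of tested probes were well above background on an array. Named were the 10 genes, the 2 highest and 2 lowest calls of each of 5 wider lists per comparison (folate cycle, glycine and serine turnover, amino acid carriers, ATF4 response, phosphoenolpyruvate exchange), of which some are left out, and the 5 genes most like TDH and PCK2. TDH and PCK2, which the rule chose on the IMF and SC arrays, were not tested between groups where either of these entered (the breed test over all fat arrays, with depot in the model, was kept). The genes and lists were chosen with earlier results of these data known. Alternatives covered scaling, background correction, probe choice, filters, slide, scan day, replicate number and each array left out in turn.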

Additional observations from a re-analysis of the deposited data

Results flagged for a closer look

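Of 210 pairs of gene and group of 4 or 8 arrays, 10 held an array that stood further from its neighbours than Dixon's 95% limit, which chance gives in about 1 of 20 groups. Levels are in log2, relative to the 75th percentile of the array. GCAT in Omen of Wagyu x Angus was 3.04 on slide 11, position 4, with the next array at 1.9. PSAT1 in IMF of Wagyu x Angus was 1.19 on slide 18, position 3, with the next at 0.63. PSPH in LD of Angus on supplement was -1.96 on slide 1, position 4, with the next at -2.67. SHMT1 in LD of Angus on supplement was -1.38 on slide 1, position 2 (next -1.84), in LD of Hereford on supplement -2.32 on slide 12, position 3 (next -1.95), and in SC of Hereford -0.21 on slide 17, position 2 (next 0.26). MTHFD2 in LD of Hereford was -7.23 on pasture (slide 13, position 3, next -6.05) and -6.45 on supplement (slide 12, position 3, next -5.29). GLDC in IMF of Angus was -3.44 on slide 8, position 1, the array that also had the highest TDH of IMF, with the next at -5.08. GLDC in LD of Wagyu x Angus on pasture was -3.49 on slide 20, position 2, with the next at -5.21. The dependence of IMF minus SC on breed, run for the 8 genes other than TDH and PCK2, and that of diet on breed in LD, run for all 10, passed the test in none by the probes used here.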

How the results depend on the processing

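Of 168 gene results, 96 kept their direction and side of the threshold, or for TDH and PCK2 their value within 1 SD, under every alternative run. Over 2695 values 96 lost the call, 55 gained it, 22 reversed and 8 moved. The last were TDH with normexp (IMF minus SC -3.90, LD minus SC -3.95, IMF minus LD 0.05), PCK2 in the unscaled table (-0.18, -0.006 and -0.34 for Inter, Kid and Omen against SC), and PCK2 for LD minus SC with the mean of probes (-6.45) and without slides 2, 20 and 23 (-6.46). The cause was not tested for any of them. In the deposited table, which is not scaled, IMF minus SC turned to 0.18 in SHMT2 and 0.23 in MTHFD2, Inter minus SC to 0.86 in PHGDH, 0.90 in SHMT1 and 0.91 in SHMT2, Kid minus SC to 0.074 in GCAT, Omen minus SC to 0.59 in SHMT1 and 0.72 in SHMT2, and IMF minus LD to 0.54 in GCAT and 0.30 in SHMT2. With normexp MTHFD2 turned to -0.28 in Inter, -0.073 in Kid and -0.076 in Omen against SC and -0.19 in IMF minus LD, GLDC to -0.21 in Inter and -0.31 in Omen, and TDH for diet to 0.009. GLDC in Inter minus SC was -0.092 with scan day over 96 arrays, SHMT2 in Kid minus SC -0.35 by the paper's probe and -0.11 by the mean of probes, and PSPH in Omen minus SC -0.83 with scan day as a block and within day 3.

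Counts of the genes that passed moved by more than 1.5 times as follows. The unscaled table gave 7 in Inter minus SC and 8 in Omen minus SC. In Kid minus SC 3 passed with normexp and 3 with scan day over 96 arrays, and in LD minus SC 4 with normexp and 4 within day 3. With scan day as a block 2 passed in IMF minus SC, 0 in Omen minus SC, 1 in IMF minus Kid, 1 in Inter minus Kid and 0 in Kid minus Omen. Within day 3 it was 1 in IMF minus SC, 0 in Omen minus SC, 3 in IMF minus Kid and 0 in Kid minus Omen, within day 2 it was 1 in Inter minus Kid and 0 in Kid minus Omen, and scan day over 96 arrays gave 1 in Inter minus Omen. No block by scan day could be had for Inter minus SC or IMF minus Inter, which share no day. Slide as a random block gave 1 in Inter minus Kid and 0 in Kid minus Omen, breed in LD and diet. As a further term scan day gave 1 for breed in LD and 0 for diet. In Kid minus Omen 1 passed with normexp, with the scaled value table and with all probes. The unscaled table gave 0 in Kid minus Omen, 1 in Inter minus Kid and 4 for diet. Normexp gave 1 for breed in LD and 0 for diet. Mean-centring and the mean of probes gave 2 each for diet, and diet by breed had 1 with quantile normalisation, 1 with mean-centring and 2 with the mean of probes. Chosen after seeing the data, leaving out the 2 Inter arrays with the highest muscle sums gave 1 in Inter minus Kid, and leaving out LD slides 2, 20 and 23 gained SHMT2 in LD minus SC (-0.18, adjusted p = 0.0246).

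With each array left out in turn the counts ran from 5 to 6 in IMF minus SC, 3 to 4 in Inter minus SC and Omen minus SC, 4 to 5 in IMF minus Inter and IMF minus Kid, 1 to 3 in Inter minus Kid, breed in LD and diet, 1 to 2 in Kid minus Omen, 6 to 7 in LD minus SC, and 0 to 1 for breed in fat and diet by breed. Single arrays that decided a call were, for PHGDH in IMF minus Inter (gained, adjusted p = 0.0189 to 0.0436), an Inter Angus, 2 IMF Angus and an IMF Hereford array, for PSPH in IMF minus SC (gained, 0.0139 to 0.0467) an IMF Angus, an IMF Wagyu x Angus, 2 SC Hereford and an SC Wagyu x Angus array, and for PCK2 by breed in LD (lost, 0.0521 to 0.0607) 3 Angus arrays of slide 2 and 2 Hereford arrays of slide 24. For PCK2 by diet 9 arrays gained the call (0.0251 to 0.0491), for MTHFD2 in Inter minus SC 6 (0.0219 to 0.0471), for PSPH by breed in LD 10 lost it (0.0535 to 0.0781).

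The replicate number of the labels is the position on the slide. Over 44 pairs of same-numbered arrays the correlation of deviations from the group means ran from -0.168 to 0.36 with a median of 0.046, and 14 were above 0.1, so the numbers were not taken to pair the samples. A replicate block changed 2 of 168 results, PSPH by breed in LD (adjusted p = 0.0532) and SHMT2 in Kid minus Omen (0.0649), where 1 gene then passed.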
